A study of Mus musculus with 4 samples.

Results

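Maturing alveolar type 2-like cells of the embryonic mouse lung were examined at E17.5 (days of embryonic development). They numbered 407 of 1580 epithelial cells and of 7479 cells in 3 lungs. The cells were selected on the measured level of 17 genes. A cell had to hold a UMI (unique molecular identifier, 1 counted RNA molecule) of at least 3 of the 5 epithelial genes Epcam, Cdh1, Cldn3, Cldn18 and Krt7 and none of the leukocyte gene Ptprc or the endothelial gene Pecam1. The summed level of Lamp3, Slc34a2, Cxcl15 and S100g (the type 2 sum) had to reach 300 CPM (the cell's UMIs of a gene scaled to a fixed total of 1e+06 per cell) and to be more than 2 times the summed level of Ager, Hopx, Akap5 and Rtkn2 (the type 1 sum). Finally, at least 2 of the 3 genes Lyz1, Retnla and Cxcl15, called maturity genes here, had to have a UMI.

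The study measured single-cell RNA in C57BL/6 mouse lung. The 3 lung samples, whose titles carry the letters WT, held live cells of digested E17.5 lungs after lysis of red cells, and no treatment or engineered allele is named for them. A further E16.5 sample held fibroblasts sorted by flow cytometry for 2 reporters together, GFP driven by αSMA and tdTomato switched on from the Rosa26 locus by Tbx4-Cre, so it selects mesenchyme. The E16.5 sort contained 28 cells that passed the epithelial gate and 0 that met the full rule. Litter and any pooling of animals are not stated for the 3 lungs, so p-values measure only the spread between these samples.

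Alveolar type 2 cells make pulmonary surfactant, a mixture of phospholipid and surfactant proteins that lowers surface tension in the air spaces. The lipid and the hydrophobic proteins are packed in lamellar bodies, which are lysosome-related secretory organelles. Before birth the cells arise from distal tip progenitors, which also give rise to the thin, gas-exchanging alveolar type 1 cells, and they progressively load lamellar bodies in preparation for breathing air.

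The rule found 169, 78 and 160 cells in lungs 1, 2 and 3. They formed 29.6% of the epithelial cells in lung 1 (95% exact Clopper-Pearson interval 25.9 to 33.6), 19.3% in lung 2 (15.6 to 23.5) and 26.4% in lung 3 (22.9 to 30.1). The mean was 25.1% ± 5.29 (SD, n = 3), and lung 2 had the lowest share. These intervals cover counting error only. The other 1173 epithelial cells comprised 67 type 2-leaning cells that met the sums but had fewer than 2 maturity genes, 858 type 1-leaning cells (type 1 sum of at least 300 CPM and more than 2 times the type 2 sum) and 248 remaining cells.

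**Figure D1:**
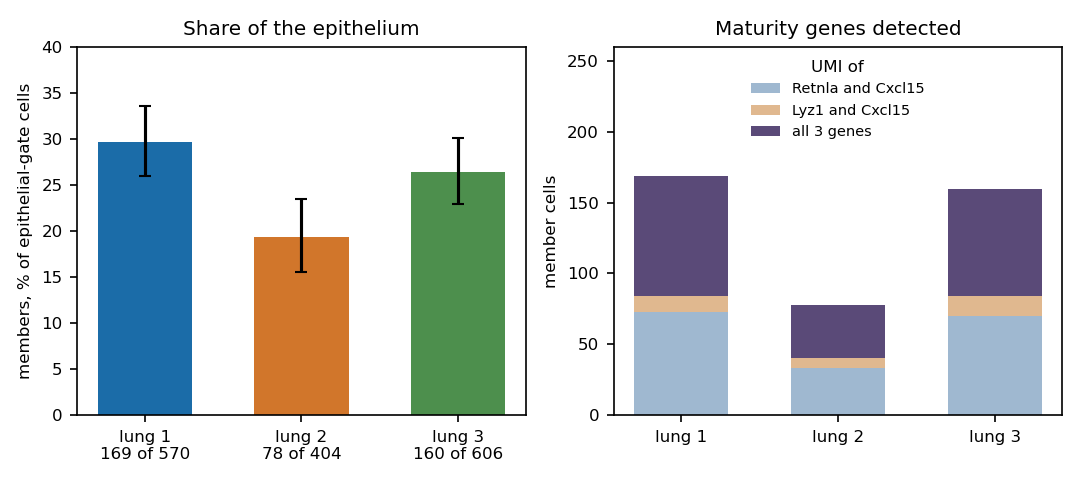
Share of epithelial-gate cells that met the rule (named members in the plots) in each E17.5 lung (left, bars from 0 with 95% exact binomial intervals) and the number of these cells by which maturity genes had a UMI (right, stacked). Lung 2 has the lowest share at 19.3%, and in every lung nearly equal numbers of cells had all 3 genes or had Retnla and Cxcl15 without Lyz1.

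Most of the selected cells lay far inside the limits on the 2 sums, but not inside the last step of the rule, where 176 cells with Retnla and Cxcl15 and 32 with Lyz1 and Cxcl15 held the minimum of 2 maturity genes. With the rule applied to 3000 UMIs per cell it found 88, 50 and 89 cells in lungs 1 to 3. The median type 2 sum was 5572, 5584 and 6006 CPM in lungs 1 to 3, beside a median type 1 sum of 530, 713 and 685 CPM. The 3 lowest type 2 sums among the selected cells were 323, 578 and 629 CPM, and 1 cell that met the other conditions lay outside at 54.4 CPM. The smallest ratios of the 2 sums inside were 2.06, 2.09 and 2.10, and 200 cells that met the other conditions fell on the other side of the ratio. The ratio limit therefore parted many more epithelial cells than the minimum sum. The type 2 sum was more than 10 times the type 1 sum in 42.6%, 35.9% and 43.1% of the cells.

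The selected cells carried a median of 10957, 11510 and 10145 UMIs in lungs 1 to 3, against 9309, 10236 and 8224 for the other epithelium. The lungs summed to 20347458 to 23996253 UMIs over 2140 to 2682 cells. Lung libraries shared 9 to 12 cell barcodes pairwise and no barcode was a selected cell in both of 2 lungs. Doublet calling marked 28 to 37 cells per lung, among them 0, 1 and 2 of the selected cells. Free RNA was visible in 2 gates of cells with no UMI of any of the 5 epithelial genes. These were an immune gate (Ptprc UMI, no Pecam1 UMI) and an endothelial gate (Pecam1 UMI, no Ptprc UMI). They held surfactant protein C gene Sftpc at 1792 and 1758 CPM, respectively. Levels in these 2 gates are therefore given as the background for genes of the epithelium. Cells with an epithelial UMI were left out of both, so this background may be low.

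Lyz1 encodes lysozyme P, an antibacterial enzyme, and lies next to its near-copy Lyz2, the lysozyme of macrophages and of adult type 2 cells. Retnla encodes a secreted resistin-like protein and Cxcl15 encodes lungkine, a chemokine of the lung epithelium. The 150 bases before the annotated start of these genes are shown from RefSeq (GRCm38.p6), with those of the surfactant protein genes Sftpa1 and Sftpb, because Lyz1 and Lyz2 differ little in sequence and much in where they were found. Each runs 5′ to 3′ on the gene's strand and ends at the base before the start, and capitals mark AAGTG or its reverse complement, the core bound by NK2 homeodomain factors such as Nkx2-1.
Lyz1 (chr10:117292869-117293018, minus strand): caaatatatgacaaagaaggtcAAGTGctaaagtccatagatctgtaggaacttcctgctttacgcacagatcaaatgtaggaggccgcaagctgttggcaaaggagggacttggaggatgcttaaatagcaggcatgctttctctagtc
Lyz2 (chr10:117282273-117282422, minus strand): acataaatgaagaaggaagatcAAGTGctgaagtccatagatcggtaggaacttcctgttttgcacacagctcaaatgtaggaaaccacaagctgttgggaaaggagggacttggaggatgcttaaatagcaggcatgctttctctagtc
Retnla (chr16:48842459-48842608, plus strand): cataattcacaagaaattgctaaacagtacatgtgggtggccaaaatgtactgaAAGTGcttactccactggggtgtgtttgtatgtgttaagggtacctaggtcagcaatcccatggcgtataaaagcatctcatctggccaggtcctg
Cxcl15 (chr5:90794384-90794533, plus strand): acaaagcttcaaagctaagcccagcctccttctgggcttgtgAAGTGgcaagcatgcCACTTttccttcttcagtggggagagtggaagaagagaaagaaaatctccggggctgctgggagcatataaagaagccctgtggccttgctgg
Sftpa1 (chr14:41131638-41131787, plus strand): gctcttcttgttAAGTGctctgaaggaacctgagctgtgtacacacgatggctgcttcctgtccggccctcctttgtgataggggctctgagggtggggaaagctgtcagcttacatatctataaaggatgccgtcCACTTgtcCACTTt
Sftpb (chr6:72304460-72304609, plus strand): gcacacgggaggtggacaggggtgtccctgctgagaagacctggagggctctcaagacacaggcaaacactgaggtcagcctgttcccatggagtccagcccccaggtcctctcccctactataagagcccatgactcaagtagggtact

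Lyz1 and Lyz2 were identical at 88.7% of aligned positions over these 150 bases and at 78.8% over 250 bases, gaps counted as differences. Their longest coding transcripts were identical at 92.0% of aligned positions and the last 300 bases at 93.8%. The sources used here do not give how the authors' counting assigned reads that match both genes, so the split between the pair is uncertain. Both genes held 1 AAGTG match, 128 bases before the start. Over the 250 bases and both strands Retnla and Cxcl15 held 2 AAGTG matches each, Sftpa1 held 5 and Sftpb held 0, while 40.7% of 32851 RefSeq promoters of this length held at least 1. A C/EBP consensus, TTGCNNAA on either strand, was found once in Lyz1, 209 bases before the start, and once in Retnla, at 134 bases, and 0 times in the other 4 genes (9.56% of all promoters held it). TATAAA was found at 30, 27 and 30 bases before the start in Retnla, Cxcl15 and Sftpa1 and in 12.4% of all promoters. No match overlapped a match of another motif, and a match is a run of letters rather than a shown binding site.

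Since the rule used the maturity genes, their levels are a description with no test. Lyz1 averaged 1504, 1355 and 1468 CPM in the selected cells of lungs 1 to 3, against 61.4, 25.4 and 22.7 CPM in the other epithelium. The immune gate held 21.2, 25.4 and 21.9 CPM. The immune gate serves as the background here, so its values cannot tell free RNA from Lyz1 made by its own cells. That gate was also rich in Lyz2, and the split of reads between the pair is uncertain. The other epithelium of lung 1 stood above the immune gate. Retnla averaged 2987, 2327 and 2393 CPM in the selected cells, against 141, 79.2 and 103 CPM in the other epithelium and 27.4 to 37.0 CPM in the immune gate. Cxcl15 averaged 3268, 3010 and 3876 CPM, against 307, 227 and 347 CPM and 23.0 to 35.9 CPM.

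Shares of cells with a UMI were also highest in the selected cells. Lyz1 had a UMI in 56.9% of selected cells, 17.1% of the other epithelium and 14.8% of the immune gate, and in 36.9%, 6.74% and 5.55% after every cell was thinned to 3000 UMIs. Median depths were 10145 to 11510, 8224 to 10236 and 6297 to 7446 UMIs in these groups. The thinned shares for Retnla were 74.1%, 15.7% and 8.74%. For Cxcl15 they were 97.1%, 31.7% and 7.04%. A single Lyz1 UMI is weak evidence in a given cell, because 13.3% of immune-gate cells and 14.1% of type 1-leaning cells also had exactly 1, beside 18.1% of the selected cells. Cells with 10 or more Lyz1 UMIs made up 19.7% ± 2.00 of the selected cells (SD, n = 3 lungs), 0.219% of type 1-leaning cells and 0 of 704 immune-gate cells.

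Lyz1 RNA was concentrated in few of the selected cells and Cxcl15 RNA was spread over nearly all of them. The 41 cells richest in Lyz1, 10% of the total, held 80.7% of the summed Lyz1 CPM, the corresponding share was 42.6% for Retnla and 26.8% for Cxcl15, and it was 15.7% for Sftpc. The median selected cell had 88.2 CPM of Lyz1, the 90th percentile was 4349 CPM and the highest cell reached 24951 CPM. For Retnla the median was 1179 CPM and the 90th percentile 7139 CPM. Every selected cell had Cxcl15, 199 had all 3 genes, 176 had Retnla and Cxcl15 and 32 had Lyz1 and Cxcl15. The shares with all 3 genes were 50.3%, 48.7% and 47.5% in lungs 1 to 3.

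Lyz2, which the rule did not use, was also concentrated in few cells, and cells rich in Lyz1 were about as often rich in Lyz2 as the others. It averaged 969, 918 and 1083 CPM in the selected cells, against 236, 355 and 218 CPM in the other epithelium (log2 difference 1.87 ± 0.11 SE, limma adjusted p = 2.73e-10), and the ranges over lungs did not overlap. This difference rested on few cells: 24 selected cells with at least 5000 CPM held 68.1% of the summed Lyz2 CPM, and without them the mean over cells was 341 CPM, within the range of the other epithelium, from which no cells were left out. The immune gate held 6840, 5898 and 6791 CPM, above every epithelial class. The richest 10% of the selected cells held 78.3% of the summed Lyz2 CPM. Of the 82 cells with 10 or more Lyz1 UMIs 13.4% also had 10 or more Lyz2 UMIs, and of the other 325 selected cells 13.2% did. Across the 407 cells the Spearman correlation of Lyz1 with Lyz2 was 0.02, over cells of 3 libraries that differ in depth. In these 24 cells, chosen after their values were seen, the summed level of 17 macrophage genes had a median of 363 CPM and a maximum of 857 CPM, beside a median of 291 CPM in the other selected cells and 10157 to 10643 CPM on average in the immune gate.

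**Figure D2:**
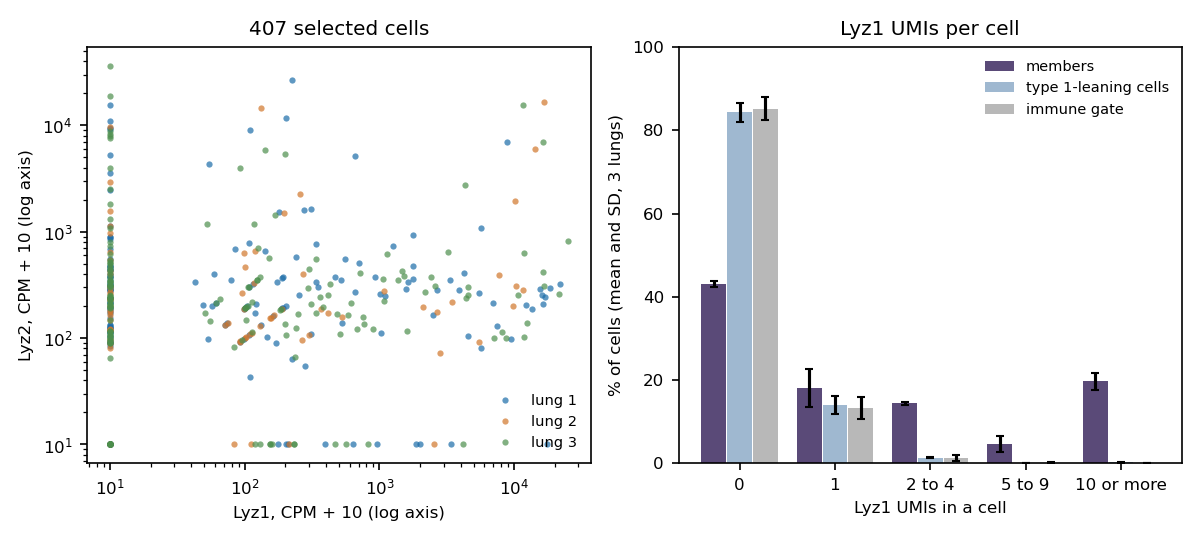
Lyz1 against Lyz2 level in each of the 407 selected cells (left, CPM plus 10 on log axes, 1 point per cell) and the percentage of cells by number of Lyz1 UMIs in 3 groups (right, bars from 0 show the mean and error bars the SD over 3 lungs). 11 cells had 10 or more UMIs of both genes, and 10 or more Lyz1 UMIs were held by 19.7% of selected cells but by 0.219% of type 1-leaning cells.

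The 82 selected cells rich in Lyz1 were set beside the 245 with 0 or 1 Lyz1 UMI. S100g averaged 749.9 against 413 CPM, Chil1 456 against 267 CPM, Scd1 508 against 314 CPM and Sftpc 121811 against 106908 CPM (means of 3 lungs). Retnla averaged 2794 and 2659 CPM and the transcription factor gene Cebpa 450 and 482 CPM in the same 2 sets. The 54 cells rich in Lyz2 had 4789 CPM of Retnla against 2214 CPM in the 353 others, and 758 against 439 CPM of S100g. These sets were formed from the measured values and are not tested.

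**Figure D3:**
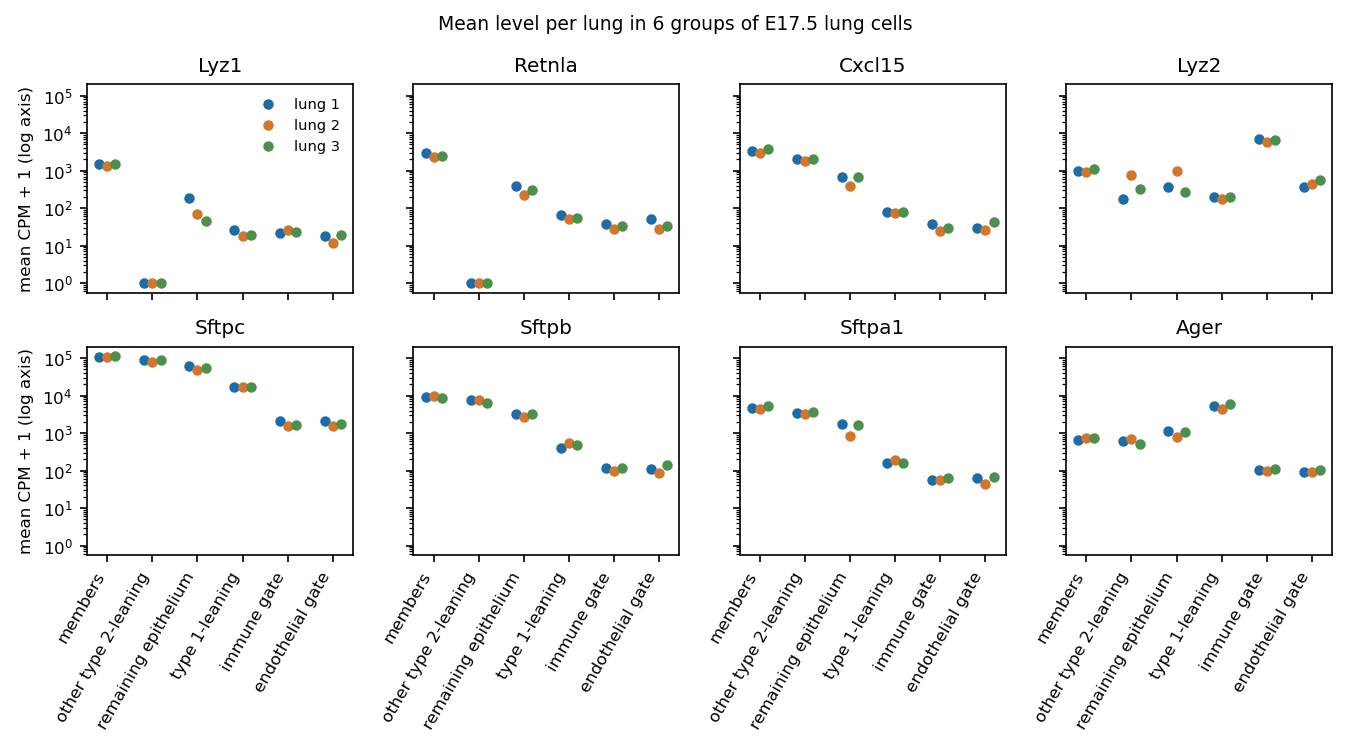
Mean level per lung (CPM plus 1 on a log axis, 1 point per lung) of 8 genes in 6 groups of E17.5 lung cells. Sftpc, Sftpb and Sftpa1 step down from the selected cells through the other type 2-leaning cells and the remaining epithelium to type 1-leaning cells, whereas Lyz2 is highest in the immune gate. Lyz1 and Retnla are at 0 in the other type 2-leaning cells. The rule allowed these cells fewer than 2 maturity genes. It therefore forced 0 of both Lyz1 and Retnla in each such cell with a Cxcl15 UMI. Only cells without a Cxcl15 UMI could have held either gene. Cxcl15 counted both in the type 2 sum and as a maturity gene.

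The other genes of the rule are given as a description with no test, since the cells were selected on their sums. Slc34a2, the sodium-phosphate cotransporter of type 2 cells, averaged 1717 ± 159 CPM (SD, n = 3) against 209 CPM in the other epithelium. Lamp3, a lysosome-associated membrane protein of lamellar bodies, averaged 528 ± 40.9 against 76.0 CPM, and the calcium-binding protein gene S100g 484 ± 72.0 against 31.8 CPM. Ager, the receptor for advanced glycation end products and a type 1 marker, was at 635, 760.5 and 739.7 CPM in lungs 1 to 3, below 4098, 3624 and 4423 CPM in the other epithelium but above the immune gate at 102 CPM. Hopx, a homeobox gene of type 1 cells, was at 48.1 against 639 CPM. The type 2 markers outside the rule Sftpc, Sftpb, Sftpa1, Sftpd, Abca3 and Napsa were all higher than in the other epithelium. Type 1-leaning cells formed 858 of the 1173 cells of that comparison group.

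Genes were compared between the selected cells and the other epithelium within the 3 lungs, with limma on log2 of the mean CPM plus 10 and the lung as a block. Of 7424 genes tested, with those of the rule left out, 755 were higher (10.2%) and 2056 lower (27.7%) at a Benjamini-Hochberg adjusted p under 0.05. Counts for gene lists against the other epithelium are to be read beside these shares. Fold differences of at least 2 were reached by 170 of the higher and 261 of the lower genes. The median gene differed by -0.13 on the log2 scale, and Sftpc alone took 108978 CPM in the selected cells against 28710 CPM in the other epithelium. With median-of-ratios scaling the median was 0.00 and 1181 genes were higher and 1100 lower, so that higher genes rose from 26.9% to 51.8% of the calls. Values near -0.13 are therefore close to the middle of all genes. Because the cells were selected for the type 2 programme, differences in type 2 and type 1 genes describe the selection, and their p-values measure only how alike the 3 lungs were.

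**Figure D4:**
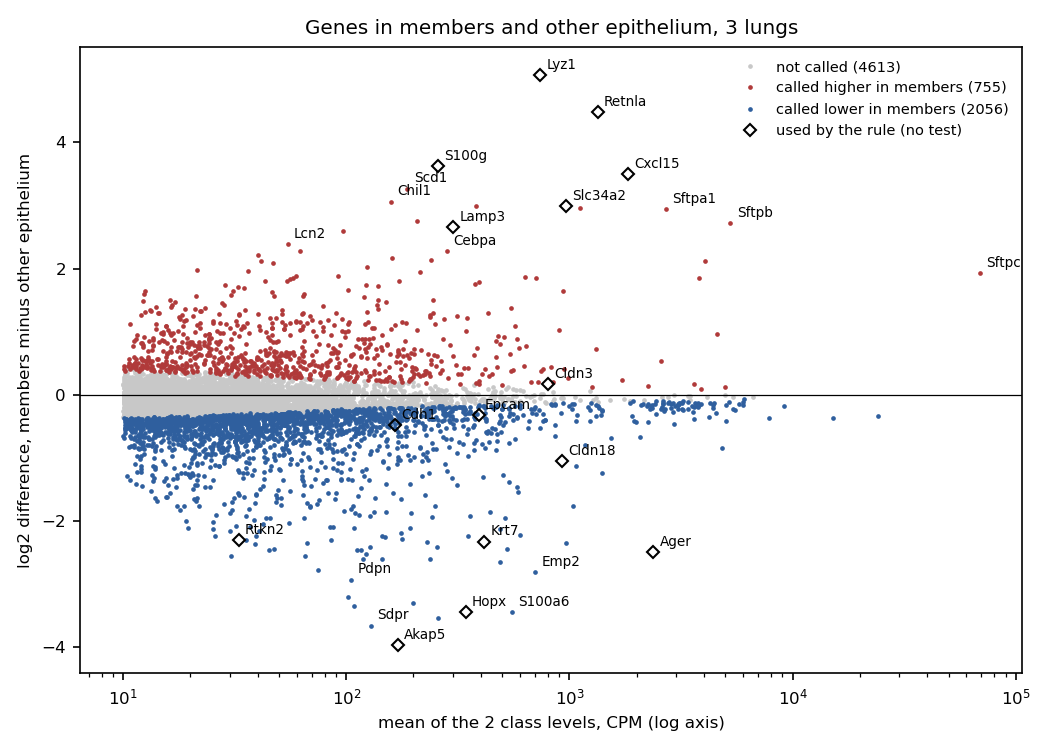
Log2 difference between the selected cells and the other epithelium against mean level (log axis) for genes of at least 10 CPM, with 1 point per gene over 3 lungs. Diamonds are genes of the rule and carry no test, and 755 points in red and 2056 in blue passed an adjusted p of 0.05.

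Genes of a surfactant and lamellar body list were among the highest. The 14 highest named genes also included Scd1, Bex2 (2.99), Fabp5, Atp6v1c2 (2.59), Lcn2, Car8 (2.28) and Cebpa, which lie outside that list. Of the 24 listed genes outside the rule 22 were higher and 1 was lower, with a median log2 difference of 1.83 beside -0.13 for all genes. The list also holds type 2 cell genes with other roles, among them Lyz2, Chil1, Hc, Il33 and Etv5. Sftpc was the most abundant RNA of the cells, at 109344, 106111 and 111479 CPM, or 10.9% of their UMIs. Its level in the other epithelium was 30214, 25736 and 30180 CPM, so the 2 groups were far apart in every lung (log2 difference 1.93 ± 0.02 SE). Sftpb, whose protein organises surfactant lipid, was at 9103, 9468 and 8871 CPM against 1368, 1309 and 1475 CPM, a log2 difference of 2.72 ± 0.04. The collectin gene Sftpa1 was at 4697, 4455 and 5237 CPM against 666, 477 and 727 CPM (2.94 ± 0.06).

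Most of the less abundant genes of this list moved the same way. Sftpd, the other lung collectin, was at 424, 376 and 389 CPM against 88.8, 58.5 and 106 CPM (log2 difference 2.14 ± 0.10). Abca3, the lipid pump of the lamellar body membrane, averaged 274 against 71.4 CPM (1.80 ± 0.08). Lpcat1, which remodels surfactant phosphatidylcholine, averaged 1111 against 302 CPM (1.85 ± 0.08), and Napsa, a protease that processes surfactant protein precursors, 1417 against 445 CPM (1.65 ± 0.05). The fatty acid transporter Cd36 was at 367, 333 and 404 CPM against 41.8, 42.1 and 55.3 CPM (2.75 ± 0.08), although the endothelial gate also held 258 CPM. Chil1 (3.06), Hc (2.21), Pla2g1b (2.17), Mlc1 (2.11), Rab27a (1.96) and Dram1 (1.79) were among the called genes with larger log2 differences, and Il33 (1.58), Slc31a1 (1.18), Adgrf5 (1.14), Etv5 (1.13), Egfl6 (1.00), Atp8a1 (0.81) and Ctsh (0.53) among the smaller.

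Prdx6, a peroxiredoxin with phospholipase activity, was the member that fell, by 0.83 on the log2 scale, at 205 CPM against 373 CPM. The mucin gene Muc1 was at 411 and 436 CPM and was not called (adjusted p = 0.37, limma).

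Lipid synthesis genes were higher as a group: 24 of 34 tested were higher and 2 lower, with a median log2 difference of 0.70. Scd1, which makes monounsaturated fatty acids, was at 363, 276 and 402 CPM against 34.3, 13.1 and 38.3 CPM (log2 difference 3.27 ± 0.11, limma adjusted p = 9.69e-14). The fatty acid-binding protein gene Fabp5 was at 2125, 1666 and 2167 CPM against 280, 209 and 251 CPM (2.96 ± 0.05). In both genes lung 2 had the lowest level and the groups did not overlap. Fatty acid synthase Fasn averaged 183 against 56.0 CPM (1.54 ± 0.09), the acyl-CoA ligase gene Acsl4 89.7 against 18.6 CPM (1.80 ± 0.12), and the lipogenic regulator Srebf1 94.4 against 32.8 CPM (1.28 ± 0.10). Cholesterol pathway genes Insig1 (1.31), Hmgcs1 (1.12) and Fdps (0.95) were also higher. The choline phosphotransferase gene Chpt1 fell by 0.44 and Elovl5 by 0.38 on the log2 scale, and with median-of-ratios scaling Elovl5 was no longer called (adjusted p = 0.12, limma). edgeR called 27 of 36 lipid synthesis genes higher and 0 lower, with an adjusted p of 0.17 for Chpt1 and 0.15 for Elovl5.

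All 24 further type 1 genes tested were lower, with a median log2 difference of -2.19. Cryab, a small heat shock protein gene, averaged 32.6 against 482 CPM (-3.53 ± 0.08). S100a6 was at 107, 83.1 and 67.0 CPM against 1089, 898 and 1058 CPM (-3.44 ± 0.09). The water channel gene Aqp5 averaged 11.7 against 206 CPM (-3.34 ± 0.11), the chloride channel gene Clic5 12.1 against 191 CPM (-3.20 ± 0.12), the type 1 surface protein gene Pdpn 16.7 against 194 CPM (-2.93 ± 0.10), and the membrane protein gene Emp2 168 against 1239 CPM (-2.81 ± 0.06). Sdpr, a caveola gene, differed by -3.66 ± 0.13, Msln by -3.29 and Gprc5a by -2.65. Lama3 showed the smallest drop of the 24 at -0.59.

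Transcription factor genes were split. Of 27 tested 12 were higher and 5 lower, with a median of 0.23, and 14 and 5 with median-of-ratios scaling. Cebpa, a regulator of lipid and surfactant genes, was at 455, 510 and 463 CPM against 84.6, 81.3 and 107 CPM (2.27 ± 0.08), with no overlap. Creb3l1 (1.26), Elf5 (1.06), Tfcp2l1 (0.98), Nfix (0.86), Irx3 (0.73) and the secretory pathway regulator Xbp1 (0.66) were also higher. Creb3l2 (-1.13), Foxp2 (-1.10), Klf5 (-0.95) and Gata6 (-0.59) were lower. Nkx2-1, the lung epithelial homeobox gene, averaged 572 and 634 CPM and was not called (log2 difference -0.15, limma adjusted p = 0.052), and neither was Foxa2 (-0.21).

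Host defence genes were mostly higher, with 13 of 18 tested higher and 3 lower and a median of 0.67. The list shares Sftpa1, Sftpd, Chil1, Hc and Lyz2 with the surfactant list. Chil1, a chitinase-like secreted protein gene, was at 271, 227 and 370 CPM against 22.1, 14.7 and 45.0 CPM (3.06 ± 0.10). Lcn2, which encodes an iron-sequestering lipocalin, was at 105, 59.1 and 132 CPM against 10.9, 4.60 and 15.6 CPM (2.39 ± 0.12), and the immune gate held 220 CPM. Hc, complement component C5, averaged 72.5 against 7.67 CPM, and the catalase gene Cat 205 against 70.5 CPM (1.43 ± 0.09). Wfdc2 (-0.65), Ifitm3 (-0.44) and B2m (-0.39) were lower, and B2m was not called with median-of-ratios scaling (adjusted p = 0.057, limma). edgeR called neither Ifitm3 (adjusted p = 0.21) nor B2m (0.098).

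Among genes for signals to neighbouring cells 3 of 13 were higher and 8 lower. The higher ones were Il33, an alarmin (50.3 against 10.3 CPM, 1.58 ± 0.12), Csf2, the macrophage growth factor GM-CSF (28.7 against 3.67 CPM, SE 0.13 on the log2 scale), and the EGF receptor ligand Areg (145 against 83.8 CPM, 0.74 ± 0.08). Tgfb2 was at 34.1 against 254 CPM (-2.60 ± 0.10), Sema3a at 6.17 against 71.9 CPM (-2.36 ± 0.13), the vascular growth factor Vegfa at 30.5 against 120 CPM (-1.66 ± 0.11) and the myofibroblast growth factor Pdgfa at 77.9 against 224 CPM (-1.41 ± 0.08). These 4 ligand genes were higher in the rest of the epithelium, of which type 1-leaning cells formed 858 of 1173.

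Progenitor, FGF and WNT genes did not move as blocks. Of 18 distal progenitor genes 4 were higher and 8 lower, and 5 and 5 with median-of-ratios scaling. The tip genes Fgfr2 (257 against 111 CPM, 1.14 ± 0.07), Id2 (1116, 1271 and 1213 CPM in lungs 1 to 3, against 586 CPM on average, 1.02 ± 0.05), Sox9 (132 against 65.2 CPM, 0.91 ± 0.09) and Bex4 (756 against 403 CPM, 0.89 ± 0.05) were higher, while Clu (-1.06), Shh (-0.82), Mycn (-0.58) and Igf2bp3 (-0.54) were lower. Of 8 FGF-response genes Etv5, Fgfr2 and Spred2 were higher and Dusp6 (-0.85) and Fgfr3 (-0.75) lower. Of 7 WNT-response genes Sp5 (1.14), the receptor decoy Bambi (1.11) and the feedback inhibitor Nkd1 (0.62) were higher and Wnt7b (-0.39) lower, which was not called with median-of-ratios scaling (adjusted p = 0.15, limma) or by edgeR (0.24). Glucocorticoid-responsive genes were also mixed (4 of 13 higher, 6 lower), with Mt1 (0.77), Mt2 (0.73) and Glul (0.66) higher and Scnn1a (-1.70) and Cdkn1c (-0.59) lower.

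Of 16 ion and fluid transport genes 4 were higher and 7 lower, and 5 and 7 with median-of-ratios scaling. The chloride channel gene Cftr averaged 30.1 against 6.63 CPM (1.27 ± 0.14), Kcnj15 35.1 against 13.3 CPM (0.96 ± 0.13) and the cotransporter gene Slc12a2 92.0 against 63.3 CPM (0.47 ± 0.09). All 3 genes of the epithelial sodium channel were lower: Scnn1a at 17.7 against 79.5 CPM (-1.70 ± 0.11), Scnn1b at 2.59 against 28.6 CPM (-1.62 ± 0.14) and Scnn1g at 1.87 against 59.3 CPM (-2.56 ± 0.13). Ano1, a calcium-activated chloride channel gene, was also lower (28.9 against 203 CPM, -2.45 ± 0.11), so the 2 chloride channel genes Cftr and Ano1 went opposite ways.

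In the secretory pathway 14 of 21 genes were higher and 2 lower, with small differences (median 0.26). Sec11c (1.01), Herpud1 (0.81), Pdia6 (0.64) and Manf (0.63) led, and Kdelr3 (-0.66) and Ssr4 (-0.27) were lower, the latter not called with median-of-ratios scaling (adjusted p = 0.30, limma) or by edgeR (0.99). Of 23 lysosomal genes 10 were higher and 7 lower, the latter near the 27.7% of all genes that were lower. The cathepsin gene Ctsc (1.09 ± 0.07), the cholesterol transporters Npc1 (1.09 ± 0.11) and Npc2 (6081 against 3114 CPM, 0.96 ± 0.03) and Lipa (0.62) were higher, and Lgals3 (-1.86 ± 0.07), Asah1 (-0.85), Ctsl (-0.50) and Psap (-0.42) were lower, of which edgeR did not call Psap (adjusted p = 0.076). Respiratory chain genes gave 1 of 21 higher and 6 lower in CPM but 7 higher and 1 lower with median-of-ratios scaling, so no direction is given for them. Glycolysis and hypoxia genes gave 5 of 18 higher and 7 lower, and 6 and 5 after that scaling, with Egln3 (1.03) highest and Eno1 (-1.42) lowest. Of 19 immediate early genes, which respond to cell dissociation, 2 were higher and 8 lower, with Socs3 (0.62) highest and Cyr61 (-1.96) lowest.

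**Figure D5:**
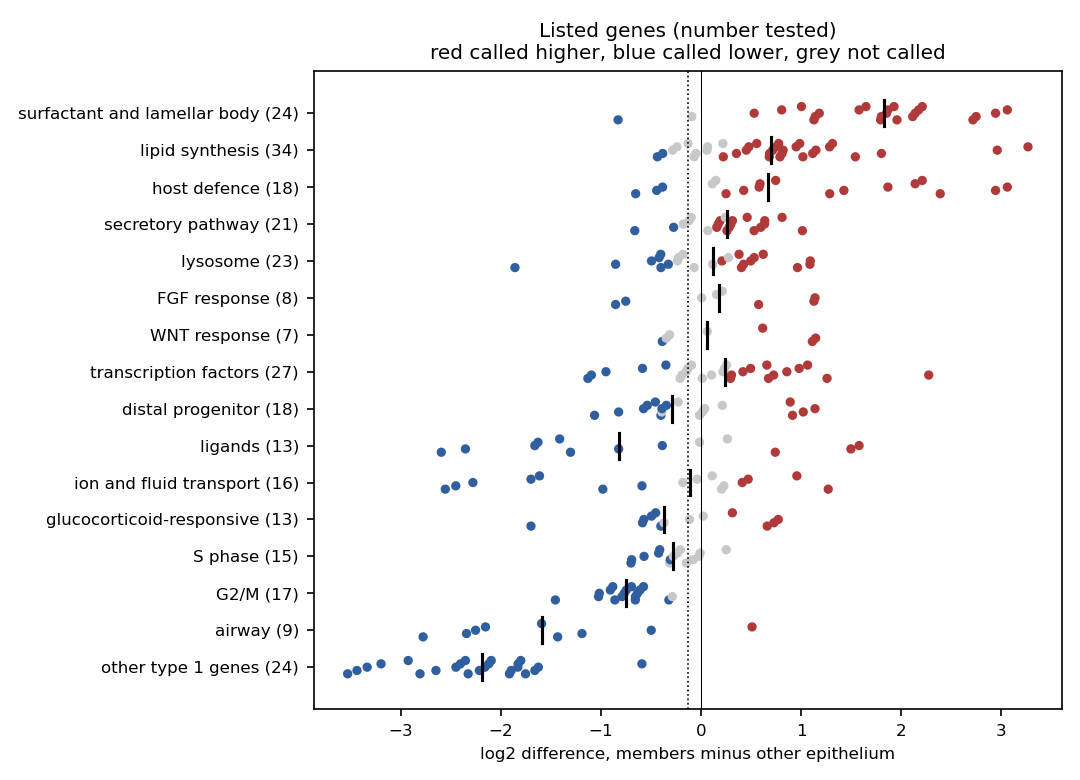
Log2 differences between the selected cells and the other epithelium for the tested genes of 16 lists, 1 point per gene. Black bars are list medians and the dotted line is the median of all genes tested at -0.13. The medians range from the surfactant and lamellar body list at 1.83 to the type 1 list at -2.19.

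Genes of late cell division were mostly lower by limma. Of 17 G2/M genes 16 were lower and 0 higher with limma, with a median of -0.75, and 15 were lower with median-of-ratios scaling. At an unadjusted p under 0.05 the counts were also 16 and 0. edgeR on summed UMIs called 4 of 23 G2/M genes lower and 0 higher, so most of the limma calls were not made by edgeR, among them Birc5 (adjusted p = 0.068). Cenpf averaged 9.49 against 39.7 CPM (-1.46 ± 0.23), Cdc20 28.7 against 66.9 CPM (-1.02 ± 0.15) and Birc5 36.6 against 74.0 CPM (-0.91 ± 0.15), while Mki67 was at 16.7 and 21.7 CPM and was not called (adjusted p = 0.14, limma). Of 15 S phase genes 6 were lower and 0 higher with limma, and 3 were lower with median-of-ratios scaling. At an unadjusted p under 0.05 there were 7 lower and 0 higher, and edgeR called 4 of 20 lower and 0 higher.

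The share of cells with any G2/M UMI did not show this difference. After thinning to 3000 UMIs it was 66.2% ± 2.29 in the selected cells and 64.9% ± 1.15 in the other epithelium (SD, n = 3 lungs), a difference of 1.32 points (two-sided exact sign-flip permutation p = 0.25, the smallest that 3 lungs allow). Without thinning the shares were 93.7% and 88.8%. The share of thinned cells with 5 or more G2/M UMIs was 7.17% ± 3.02 against 13.5% ± 0.973, and it was lower in the selected cells of all 3 lungs. The summed G2/M level was 643 ± 258 against 1106 ± 68.8 CPM. Lung 1 stood apart with little difference, at 934 against 1028 CPM, beside 440 against 1138 CPM in lung 2 and 557 against 1154 CPM in lung 3. For S phase the thinned shares were 59.8% ± 3.28 and 61.2% ± 3.82 (two-sided exact sign-flip permutation p = 0.75).

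Markers of other cell types were low on average. The summed level of 17 macrophage genes was 334 to 405 CPM over lungs in the selected cells, 377 to 431 CPM in the other epithelium and 10157 to 10643 CPM in the immune gate. The highest single selected cells reached 13152, 3682 and 3593 CPM in lungs 1 to 3. The other type 2-leaning cells averaged 258, 209 and 278 CPM, below the selected cells of each lung. By median they were higher in lung 3 (308 against 278 CPM). At least 1 of 7 such genes had a UMI in 88.2%, 89.7% and 80.0% of selected cells and in 78.1%, 73.9% and 70.9% of the other epithelium. Of the 17 genes Mrc1 was at 0 in the selected cells of lung 2 and the others had a UMI in each lung; 3 of 11 tested were higher and 4 lower than in the other epithelium. Endothelial genes summed to 145 to 213 CPM against 169 to 247 CPM, and mesenchymal genes to 349 to 462 CPM against 593 to 1054 CPM. By median the mesenchymal sums were close, at 325 to 437 CPM against 335 to 470 CPM, while the remaining epithelium averaged 1024 to 2612 CPM. All 7 mesenchymal genes tested were lower than in the other epithelium. Against type 1-leaning cells and against other type 2-leaning cells limma called 0 of 7 lower. The part of other cells' RNA in the differences was not tested. In the mesenchymal list Tbx4 was at 0 in the selected cells of lung 2. Airway genes summed to 330 to 1226 CPM against 1270 to 3492 CPM. By median the airway sums were closer, at 177 to 203 CPM against 230 to 297 CPM. Of 9 tested 8 were lower, among them Sec14l3 (-2.78), and 1, Aldh1a7 (0.51), was higher. The secretory cell gene Scgb3a2 was at 152, 938 and 122 CPM in lungs 1 to 3. Only 3 cells, 1 in each lung, had at least 1000 CPM of Scgb3a2 and they held 84.2% of its sum, and without them the mean over cells was 46.4 CPM.

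The most similar cells were the 67 other type 2-leaning cells (17, 18 and 32 per lung), which differ from the selected cells by the last step of the rule alone. Against them 62 of 7503 genes were higher (0.826%) and 56 lower (0.746%), and 2-fold differences were reached by 29 and 5. These counts rest on few cells and on every lung: they fell to 6 and 5 without lung 1, 20 and 6 without lung 2, and 2 and 0 without lung 3, where limma gave 1105 genes an unadjusted p under 0.05 (1269 with all lungs). edgeR on summed UMIs gave 66 higher and 14 lower, and median-of-ratios scaling 90 and 21. The share of higher genes among calls was 52.5% in CPM, 81.1% with median-of-ratios scaling and 82.5% with edgeR. In lungs 2 and 3 the comparison cells carried 3092 and 6671 CPM of Scgb3a2 and in lung 1 50.6 CPM, and the part of airway-like cells in the differences was not tested.

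Among the called genes lipid and surfactant genes were higher in the selected cells. Fabp5 was at 1986 against 861 CPM (log2 difference 1.19 ± 0.14, limma adjusted p = 0.00064) and was called in 2 of the 3 fits that left out a lung. Npc2 (6081 against 4399 CPM, 0.47 ± 0.05) and Sftpc (108978 against 85677 CPM, 0.35 ± 0.05) were likewise called in 2 of 3. Scd1 was at 363, 276 and 402 CPM against 160, 81.5 and 170 CPM (1.33 ± 0.29), and Chil1 at 271, 227 and 370 CPM against 25.2, 63.1 and 179 CPM (1.90 ± 0.39). The groups did not overlap in either gene, but neither was called in any fit that left out a lung, and edgeR called both. Of 24 genes of the surfactant list 4 were higher (median 0.36) and of 33 lipid synthesis genes 4 (0.30). In either list 0 were lower at an unadjusted p under 0.05 in limma or an adjusted p under 0.05 in edgeR. edgeR called 10 and 4 of these genes higher. Of 24 type 1 genes 0 were called by limma or edgeR in either direction (median -0.12), although 3 were higher and 3 lower at an unadjusted p under 0.05.

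Some called genes lay outside these programmes. Col6a1, a collagen VI chain gene, was at 71.1, 65.4 and 94.3 CPM against 30.9, 3.32 and 8.84 CPM (1.99 ± 0.35), and Col6a2 averaged 85.8 against 24.9 CPM (1.54 ± 0.32). The endothelial gate held 70.6 CPM of Col6a1 and 87.9 CPM of Col6a2. Pon3 (1.26), Gem (1.39), Mirg (1.31) and Socs3 (0.88) were higher. Hc was at 58.6, 71.3 and 87.7 CPM against 0, 35.7 and 22.2 CPM, with a level of 0 in the 17 comparison cells of lung 1. Birc5 (-1.12 ± 0.25), Cdc20 (-1.11 ± 0.23), Hist1h1c (53.9 against 121 CPM), Col18a1 (-0.97), Mia (-0.97), F3 (-0.94), Suds3 (-0.90), Vim (-0.82) and Eno1 (-0.76) were lower. edgeR did not call Birc5 (adjusted p = 0.58) or Cdc20 (0.50), nor Vim (0.21), Suds3 (0.13), Hist1h1c (0.076) and F3 (0.060). Over all alternatives the adjusted p of Birc5 ranged from 3.94e-06 to 0.59, of Cdc20 from 0.00033 to 0.68, of Vim from 0.00524 to 0.31, of Suds3 from 0.00932 to 0.20, of Hist1h1c from 0.0223 to 0.98 and of F3 from 0.0134 to 0.59.

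Against the 858 type 1-leaning cells 449 of 7503 genes were higher (5.98%) and 764 lower (10.2%), and 2-fold differences were reached by 228 and 304. Sftpa1 was at 4697, 4455 and 5237 CPM against 157, 187 and 162 CPM (4.75 ± 0.17), and Bex2, a small adaptor gene of the Bex family, at 794, 567 and 690 CPM against 16.9, 27.8 and 18.6 CPM (4.48 ± 0.18). Sftpb (4.24), Scd1 (4.02), Fabp5 (3.84) and Cd36 (3.76) followed. Sdpr (-4.01), Cryab (-3.89), S100a6 (-3.74), Aqp5 (-3.73), Msln (-3.68) and Clic5 (-3.57) were the 6 lowest named. The tip genes Fgfr2 (1.45), Sox9 (1.38), Id2 (1.33) and Bex4 (756 against 301 CPM) were higher here too, and Etv5 (1.64), Sp5 (1.59), Bambi (1.39) and Nkd1 (0.51) led the FGF and WNT lists. These lists again did not move as blocks. Of 18 distal progenitor genes 4 were higher and 2 lower, with a median of -0.16. Of 8 FGF-response genes 2 were higher and 2 lower, and of 8 WNT-response genes 3 were higher and 0 lower. Of 20 G2/M genes 3 were lower, beside 10.2% of all genes: Cenpf (-1.31), Cdc20 (-0.94) and Cenpa (-0.62). Cenpa was not called with median-of-ratios scaling (adjusted p = 0.097, limma). edgeR called none of these 3 (adjusted p = 0.11, 0.057 and 0.47), and each was called in 1 of 3 fits that left out a lung. The 2 comparisons with other epithelium and with type 1-leaning cells share cells on both sides, so they are not independent of each other.

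Within the selected cells the levels varied widely, and the correlation of Cxcl15 with the genes named here ranged from strong to near 0. Across 407 cells its Spearman correlation was 0.63 with Sftpb, 0.61 with Sftpc, 0.54 with Cd36 and 0.51 with Fabp5, but 0.27 with Abca3, 0.15 with Sftpd and 0.0011 with Egfl6. With the UMI total of the cell it was -0.25. Retnla correlated at 0.49 with Fabp5 and 0.47 with S100g, while Lyz1 with Retnla gave -0.02. The points share 3 libraries and cell depth, and Cxcl15 itself was part of the selection. Sftpc ranged from 2208 to 235544 CPM per cell, with a median of 107710 CPM, and 2 cells lay under 10000 CPM. These 2 cells were among the 3 rich in the airway gene Scgb3a2, with 20534 and 68415 CPM of it. Cells with all 3 maturity genes averaged 467 ± 50.4 CPM of Sftpd (SD, n = 3 lungs) against 330 ± 44.1 CPM in cells with 2 of 3, and 63.5 ± 2.72 against 37.6 ± 8.23 CPM of Il33. For Abca3 the same averages were 280.01 ± 29.0 and 269 ± 17.6 CPM, closer than the spread between lungs.

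By number of UMIs the 15 most abundant RNAs outside mitochondrial and ribosomal protein genes were led by Sftpc, the nuclear noncoding RNA Malat1 (21420 CPM) and the actin-binding Tmsb4x (13309 CPM). Sftpb (9147 CPM), the imprinted genes Dlk1 (6601 CPM) and Meg3 (5970 CPM), and Npc2 (6081 CPM) came next. Eef1a1 (5761 CPM), Sftpa1 (4796 CPM), Ftl1 (3834 CPM), Actg1 (3690 CPM), Actb (3487 CPM), Cxcl15 (3385 CPM), Fau (3367 CPM) and Ctsh (3028 CPM) completed them. These levels count molecules and are not scaled by transcript length.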

How the data were processed

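Single-cell RNA was measured in 3 E17.5 lungs and 1 E16.5 sort. The deposited values are a signal per gene and cell: UMI counts that the authors divided by the cell's total and scaled to the same sum in every cell, as the files themselves show. The tools named for this, per the submitters' processing notes, are Seurat 3.0.0 and Cell Ranger 1.3.1. The aligner settings and the genome build are not given in the sources used here. Dividing each cell by the worth of 1 UMI gave whole UMIs for 100% of values (within 0.01), so depth was recovered (medians 7201 to 8494 UMIs per lung cell). All rows with 1 of 26 duplicated symbols were summed, and 0 other sample columns were set aside.

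CPM was averaged over the cells of each class and lung. limma 3.58.1 (R 4.3.3, empirical Bayes with trend, lung as a block) was fitted to log2(mean CPM + 10) for genes of at least 10 CPM on average, with Benjamini-Hochberg adjustment over all genes tested and a threshold of 0.05. The comparisons with other type 2-leaning and type 1-leaning cells came from 1 fit of 4 classes. The block was kept because each lung gave every class. log2 values understate changes of low genes. edgeR 4.0.16 (quasi-likelihood, on the recovered UMIs summed per class and lung) was an alternative. Doublets were called with scanpy 1.11.5 and kept in the main analysis. Other steps used scipy 1.17.1, pandas 2.3.3, numpy 2.4.6 and matplotlib 3.10.9 under Python 3.11.15, and the fits were tested on simulated data. Shares of cells were also computed after thinning to 3000 UMIs.

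The members and lists were chosen with earlier results of these data known. Named genes were the 14 highest and 10 lowest against other epithelium, 8 each way against other type 2-leaning cells and 6 each way against type 1-leaning cells, among called genes with the same direction in 3 of 3 lungs and at least 50 CPM in the higher class. Added to them were the 15 most abundant genes, up to 4 called genes per list and direction, and the surfactant list. The Lyz1 UMI classes, the sets rich in Lyz1 or Lyz2 and the limits for single cells were chosen after values were seen, as were uncalled genes named beside a list. Alternatives changed the pseudocount, filter, scaling, test, block, doublets, mitochondrial limit, macrophage UMIs, the rule and the lungs used.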

Additional observations from a re-analysis of the deposited data

Results flagged for a closer look

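In the E16.5 sort, which no comparison used, 28 of 3085 cells passed the epithelial gate. A Retnla UMI was found in 7 of these 28 cells and a Cxcl15 UMI in 18, which is above the limit that a count of 0 allows. A Lyz1 UMI was found in 0 of 28 cells and in 0 of all 3085 cells. Over all cells of the sort Retnla had a UMI in 0.421% and Cxcl15 in 1.07%. None of the 28 cells met the full rule. The sample is 1 library of another age and another cell preparation, so no difference from the E17.5 lungs was tested.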

How the results depend on the processing

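Against the other epithelium (755 higher, 2056 lower) the counts were 1181 and 1100 with median-of-ratios scaling, 1319 and 1212 with edgeR, 293 and 640 without cells holding a macrophage UMI (20, 8 and 32 selected cells left), and 619 to 699 and 1596 to 1673 with 1 lung left out. Against the other type 2-leaning cells (62 higher, 56 lower) they were 38 and 34 with a pseudocount of 1 CPM, 24 and 7 with no filter on low values, 18 and 4 without macrophage UMIs, 232 and 466 with the rule applied to 3000 UMIs per cell, and 2 to 20 and 0 to 6 with 1 lung left out. The lower genes were 21 with median-of-ratios scaling, 14 with edgeR and 100 for cells with all 3 maturity genes. Against type 1-leaning cells (449 and 764) they were 1118 and 1314 with edgeR, 110 and 216 without macrophage UMIs, 267 to 346 and 420 to 500 with 1 lung left out, and 1157 lower with the rule on 3000 UMIs. Without the replicate block the counts were 699 and 1867, 60 and 57, and 451 and 744 in the 3 comparisons, and the block moved none by over 1.5 times. The share of epithelium (25.1%) was 15.6% without macrophage UMIs, 12.3% with all 3 maturity genes, 16% with the rule on 3000 UMIs, and 22.9% to 28.0% with 1 lung left out. The thinned difference in the share with a cycle UMI (-1.41 points for S, 1.32 for G2/M) was 7.51 and 4.85 unthinned, and -4.43 to 1.46 and 0.689 to 1.93 with 1 lung left out (S above 0 only without lung 2), which was added after seeing the data. Fewer cells or lungs enter where cells or lungs are left out; for the rest the cause was not tested.

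Signs reversed for 12 listed genes against other epithelium, on the log2 scale. Atp5a1 (-0.16) was 0.018 with median-of-ratios scaling and 0.0047 without macrophage UMIs, and Uqcrc1 (-0.23) was 0.024 with edgeR. Without macrophage UMIs Ccna2 was 0.0833, Cycs -0.030, Dusp1 0.089, Egr1 0.044 (and 0.037 against type 1-leaning cells), Hsd11b1 0.092 and Spi1 0.062. With the rule on 3000 UMIs C1qb was -0.0972, Cd52 0.20, Coro1a 0.051 and Fcer1g 0.20. Against other type 2-leaning cells Lcn2 was -0.012 without macrophage UMIs. Of the 32 named genes of that comparison 0 were called in all 3 fits with a lung left out, 18 in none, and 23 by edgeR. The corresponding share against other epithelium was 207 of 259 genes called in all 3.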

Other observations

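Imprinted genes of the Dlk1-Meg3 cluster stood out among the abundant RNAs. Meg3 was at 6094, 5754 and 6063 CPM in the selected cells of lungs 1 to 3, against 1728, 1495 and 1707 CPM in the other epithelium (log2 difference 1.86 ± 0.03 SE). Mirg, a noncoding RNA of the same cluster, was at 58.0, 45.4 and 72.6 CPM against 9.90, 10.3 and 13.1 CPM, and Dlk1, the paternally expressed gene beside it, at 6701, 6031 and 7071 CPM against 1531, 1413 and 1594 CPM (2.12 ± 0.03). The groups did not overlap for any of these 3 genes. Mirg was named by the rule against other type 2-leaning cells, and Meg3 and Dlk1 as abundant genes.

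H19, a further imprinted noncoding RNA chosen after its values were seen, went the other way, with a log2 difference of -2.43 ± 0.08 against the other epithelium (limma adjusted p = 1.11e-13).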
